A study of Mus musculus with 48 samples.

Results

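Liver gene expression was compared between the ATF7+/+ and the wild-type offspring of mouse sires fed a control diet. The members were the 16 arrays, of 48 in the series, that the labels place in these groups: 8 of wild-type offspring (WT_CD) and 8 of ATF7+/+ offspring (ATF7+/+_CD). In each group 1 pair of near-identical arrays was averaged and counted as 1 sample (wild-type replicates 4 and 5, ATF7+/+ replicates 7 and 8), which left 7 samples against 7. The sires were on the control diet from 3 to 12 weeks of age, and the median liver lobe of their F1 offspring, males or females, was collected at 3 weeks of age. All groups share these ages and this tissue; strain, the sex of each animal and the hour of collection are not given. Neither label names a mutant ATF7 allele, and how ATF7+/+ and wild-type offspring differ, for example in the genotype of a parent, is not stated in the labels. The low-protein counterparts (WT_LPD and ATF7+/+_LPD, 8 samples each), whose sires ate a low protein diet over the same weeks, served for comparison. The heterozygous groups (ATF7+/-_CD and ATF7+/-_LPD, 8 samples each) entered only the estimate of the spread and the levels given beside the others. The series' design text calls the 8 arrays of a group biologically independent, but no label ties a sample to a litter or a sire, so the p-values measure the spread between these samples.

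ATF7 is a transcription factor of the ATF2 family, which binds cyclic-AMP-response-type elements, responds to stress kinases and has been linked to methylation of histone H3 at lysine 9. The liver makes cholesterol from acetyl-CoA through the mevalonate pathway, and it makes fatty acids from the same precursor. The genes of both routes are classic targets of the SREBP transcription factors, which are released from the endoplasmic reticulum when sterols are low, and they also respond to feeding and to the daily clock.

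Values are log2 probe set signals as the authors normalized them, so a difference of 1 is a 2-fold change. A gene passed where its Benjamini-Hochberg adjusted p in limma, over 13542 genes, was under 0.05. Unless said otherwise, this p and each standard error (SE) rest on the spread over all 6 groups. Where the 2 groups compared vary more than the others, the SE is smaller than their own spread would give. Levels of different genes cannot be set against each other on this array.

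The arrays fell into 2 sets that the labels do not name. They were separated by the first principal component, which took 48.6% of the variance, of 5591 probe sets with no listed gene. Set A took 3 arrays of every group and set B the other 5; set A held wild-type replicates 6, 7 and 8 and ATF7+/+ replicates 1, 2 and 3. Within set A the ATF7+/+ arrays stood apart from the others on the first component of its own arrays, at 13.17 to 25.68 for both diets against -13 to -1.34 for the other 4 groups. Y-linked genes were high in 5 of the 7 wild-type samples and in 6 of the 7 ATF7+/+ samples. The 9 hepatocyte markers measured differed by a median of -0.01, and none of them passed. Albumin (Alb) had a mean log2 level of 13.51 over all arrays.

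In the control-diet arm 47 genes passed, 39 of them higher and 8 lower in ATF7+/+ than in wild-type offspring. These were 0.347% of the genes tested, 0.288% higher and 0.0591% lower; 1434 genes (10.6%) had an unadjusted p under 0.05. The genes that rose were led by Fabp5 and by enzymes of cholesterol synthesis, with enzymes of fatty acid synthesis among the rest. The genes that fell included Fkbp5, Cux2 and Slc16a5. With each array's median set to the same value 30 genes passed, 28 higher and 2 lower. Fitted with the spread of these 14 samples alone, in place of the spread over all 6 groups, 1 gene passed (863 had an unadjusted p under 0.05) and it was none of the 47: Chrna4, a nicotinic acetylcholine receptor subunit, at a difference of 1.42 ± 0.17 (SE, limma adjusted p = 0.00467).

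That count of 47 also moved with single samples. It was 9 without wild-type replicate 8, 28 without wild-type replicate 7 and 93 without wild-type replicate 3. It was 14 without either ATF7+/+ replicate 1 or ATF7+/+ replicate 3, 31 without replicate 2, 28 without replicate 4, 27 without replicate 6 and 184 without replicate 5 of that group. Across these fits, which leave out each of the 14 samples in turn, 8 genes passed every time: Fabp5, Nsdhl, Msmo1, Rdh11, Fdps, Dhcr7, Elovl5 and Rps23rg1. None of the 47 changed direction under any setting run, but every setting reuses samples on which these genes were chosen.

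Samples of the groups did not overlap at all for 12 genes that were higher (0.0886% of genes tested) and 6 that were lower (0.0443%) in ATF7+/+ offspring. Of the 12, Fabp5, Msmo1, Cyp51, Hmgcs1, Sc5d, Ebp and Tecr passed the test; Chrna4, Il18, Pde4b, Cbln3 and Prrg3 did not, with adjusted p-values from 0.0822 for Il18 to 0.248 for Chrna4 in limma. Of the 6, Fkbp5 and Chd7 passed; Zfp787, Foxn2, Snord96a and Xirp1 did not, with adjusted p-values from 0.0646 to 0.302.

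Genes of cholesterol synthesis and uptake made up 11 of the 39 genes that rose. Of 24 genes on that list 19 were measured, and the others are not analysed here. Of the 19, 11 rose and none fell, all 19 estimates were above 0, and their median difference was 0.53, against -0.001 over all genes tested. Without wild-type replicate 8 the count was 4, in the samples with high Y-linked levels alone it was 7, and with the spread of the 2 groups alone it was 0 (4 with the array set as well); it was 10 in set A alone and 1, Sqle, in set B alone, while the median lay between 0.45 and 0.80 in every setting run. The members are described here in the order of the pathway.

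Hmgcs1, which makes HMG-CoA at the head of the mevalonate route, had log2 levels of 8.88, 9.67 and 10.29 (lowest, median, highest) in wild-type offspring and 10.38, 10.74 and 10.93 in ATF7+/+ offspring. The groups did not overlap, and the difference was 1.13 ± 0.23 (SE, limma adjusted p = 0.0147), or 2.19-fold. Pmvk, the phosphomevalonate kinase, rose by 0.70 ± 0.17 (adjusted p = 0.0473). Its neighbours Mvk and Mvd, the mevalonate kinase and the decarboxylase, did not pass, at 0.50 ± 0.16 and 0.46 ± 0.25.

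Idi1 interconverts the isoprenoid building blocks. Its levels were 7.40, 8.05 and 9.88 in wild-type and 9.63, 9.99 and 10.27 in ATF7+/+ offspring. Only the highest wild-type value reached into the ATF7+/+ range, and the difference was 1.61 ± 0.33 (adjusted p = 0.0147, 3.05-fold). The other probe set of Idi1 gave 1.57 (adjusted p = 0.0128). Fdps, which makes farnesyl diphosphate, rose by 1.16 ± 0.22 (adjusted p = 0.00865). Fdft1, squalene synthase, was 0.39 ± 0.13 higher and did not pass (adjusted p = 0.20).

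Sqle, squalene epoxidase, is a rate-limiting step of the sterol branch. It ranged from 6.88 to 8.64 with a median of 7.25 in wild-type offspring, and from 7.96 to 9.41 with a median of 9.32 in ATF7+/+ offspring. Within each array set the groups did not overlap, and the difference over all samples was 1.32 ± 0.27 (adjusted p = 0.0147). Lss, which closes the sterol rings, did not pass (0.51 ± 0.25, adjusted p = 0.465).

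Cyp51 removes the first of the methyl groups of lanosterol. It stood at 7.15, 7.91 and 9.10 in wild-type and at 9.17, 9.54 and 9.76 in ATF7+/+ offspring. Every ATF7+/+ sample lay above every wild-type sample, at a difference of 1.44 ± 0.28 (adjusted p = 0.0106, 2.71-fold). Msmo1, the sterol methyl oxidase, had levels of 7.93, 8.96 and 9.77 against 9.81, 10.26 and 10.42. It did not overlap either, and rose by 1.30 ± 0.23 (adjusted p = 0.0043).

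Nsdhl, the sterol dehydrogenase that acts with Msmo1, rose by 1.37 ± 0.25 (adjusted p = 0.00569), with wild-type levels spread from 7.53 to 10.24 and ATF7+/+ levels from 9.54 to 10.81. Its SD was 0.93 in WT_CD and 0.42 in ATF7+/+_CD (n = 7 each), against 0.29 to 0.41 in the low-protein and heterozygous groups. Hsd17b7 and Tm7sf2, which reduce sterol intermediates, were 0.38 ± 0.20 and 0.53 ± 0.20 higher without passing. Among the closing steps Ebp, the sterol isomerase, rose by 0.39 ± 0.09 (limma adjusted p = 0.0486) and Sc5d, the C5 desaturase, by 0.45 ± 0.10 (0.0371). Dhcr7, the reductase that yields cholesterol, rose by 0.89 ± 0.17 (0.00807). Ebp and Sc5d had no overlap between groups. Stard4, which carries sterol in the cytosol, and Npc1l1, a sterol uptake protein, were at 0.25 ± 0.14 and 0.10 ± 0.07 and did not pass.

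**Figure D1:**
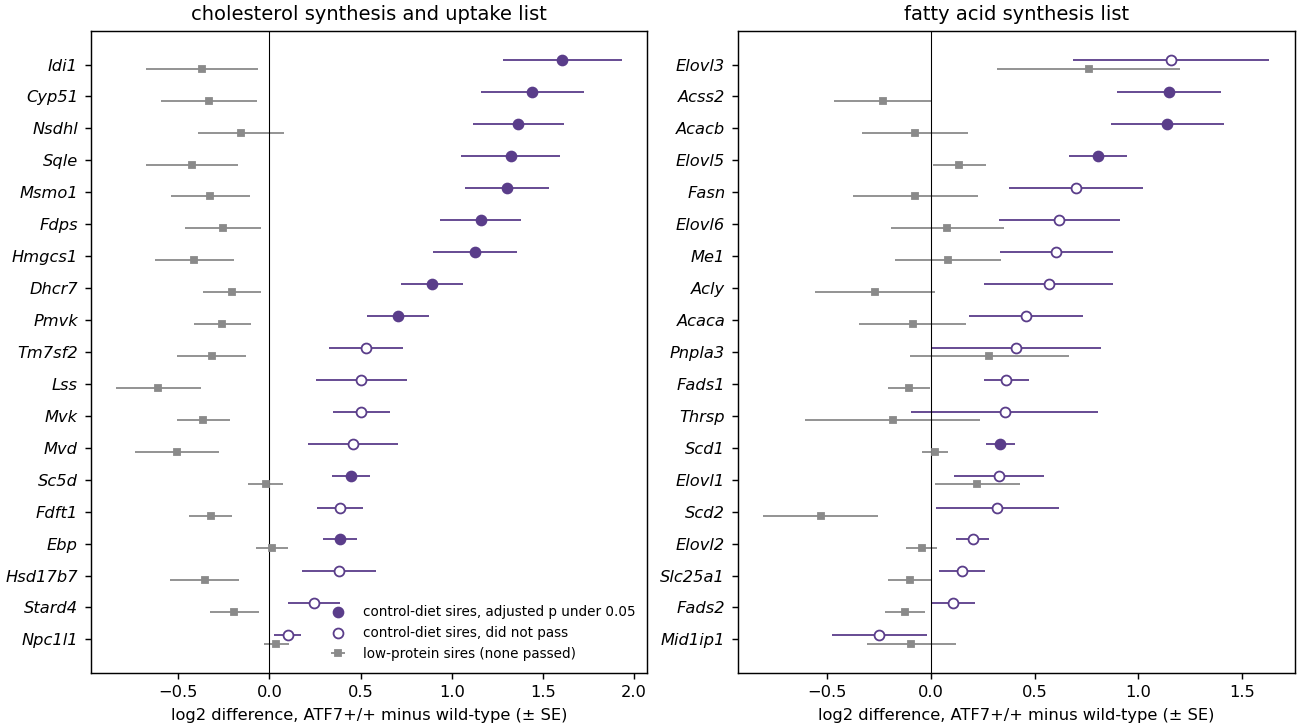
Log2 difference, ATF7+/+ minus wild-type, with its standard error for each measured gene of the cholesterol (left) and fatty acid synthesis (right) lists. Circles are offspring of control-diet sires, filled where the adjusted p was under 0.05 (11 of 19 and 4 of 19), and grey squares are offspring of low-protein sires, where none passed. The cholesterol genes lie right of 0 for control-diet sires, and most lie left of 0 for low-protein sires.

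Averaged over the 19 genes and set relative to the mean of all 46 samples, the list stood at -1.50 to -0.16 (median -1.05) in the wild-type samples and at -0.51 to 0.19 (median -0.01) in the ATF7+/+ samples. Wild-type replicates 4 and 1, at -0.16 and -0.45, lay within the ATF7+/+ range, and the other 5 wild-type samples lay below it. Over all 6 groups the wild-type offspring of control-diet sires were lowest, at -0.90 ± 0.45 (SD, n = 7), followed by ATF7+/+_CD at -0.11 ± 0.25 (SD, n = 7). The other 4 groups stood at 0.07 ± 0.34 (ATF7+/-_LPD), 0.10 ± 0.28 (ATF7+/+_LPD), 0.34 ± 0.21 (ATF7+/-_CD) and 0.38 ± 0.19 (WT_LPD, each SD, n = 8). Neighbours among these 4 differed by less than the larger of their SDs.

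**Figure D2:**
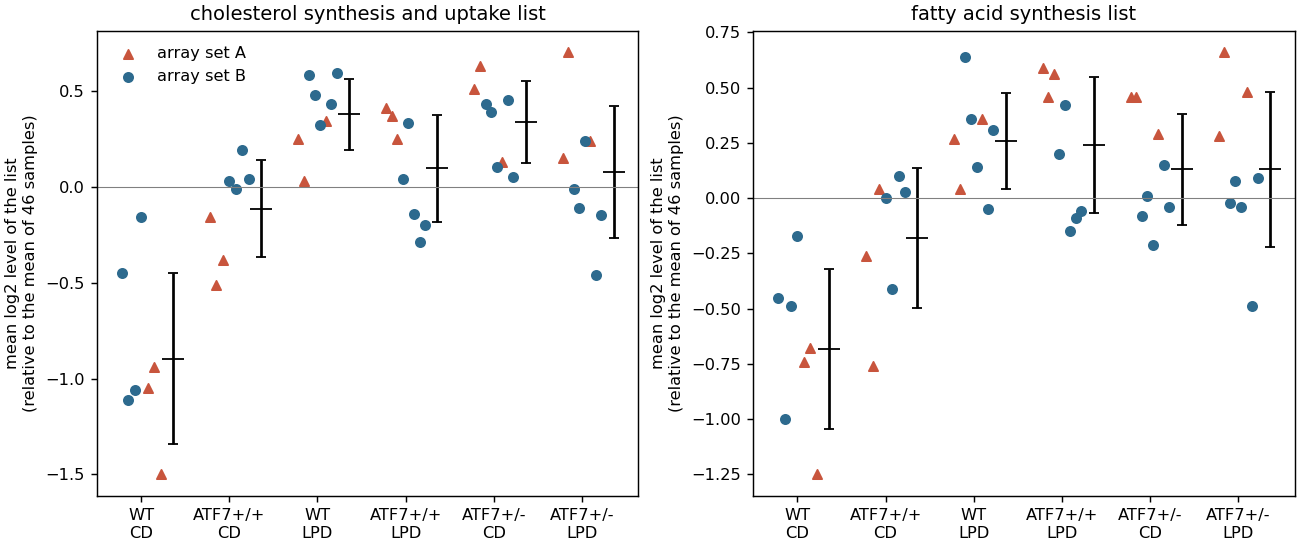
Mean log2 level of the cholesterol (left) and fatty acid synthesis (right) lists in every sample, relative to the mean of 46 samples, by group. Triangles are array set A and circles array set B; the bar at the right of each group is the mean with its SD. The wild-type offspring of control-diet sires are lowest in both panels, and their ATF7+/+ counterparts lie between them and the other 4 groups.

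Promoters of the cholesterol list were read whether or not a gene passed. The windows were RefSeq's, from 250 bases before to 50 bases after the annotated start (GRCm38.p6). Windows were found for 15 of the 19 measured cholesterol genes, by symbol, and for genes with several starts the first listed was used. On either strand, the CCAAT box (CCAAT) was in 14 of the 15, against 37.9% of all genes with a window. Those with the box included Mvk, Mvd, Lss, Tm7sf2, Hsd17b7 and Npc1l1, which did not pass. Among all genes that passed, it was in 21 of the 40 with a window. The sterol regulatory element TCACNCCAC was in 1 of 15 (Hmgcs1) against 1.22%, the E-box CACGTG in 2 of 15 against 7.24%, and the element TGACGTNA, of the type that ATF2-family factors bind, in 0 of 15 against 3.08%. The E-box and TGACGTNA share the letters ACGT, and TCACNCCAC and CCAAT share CCA; a match is only a match of letters. The other 4 genes, Sqle, Fdps, Fdft1 and Stard4, were not searched here. The windows below are those of the 5 genes with the largest differences among the 15 that had one, with the matches to these motifs in capitals (CCAAT reads ATTGG on the other strand).
Hmgcs1, chr13:119690101-119690400, plus strand: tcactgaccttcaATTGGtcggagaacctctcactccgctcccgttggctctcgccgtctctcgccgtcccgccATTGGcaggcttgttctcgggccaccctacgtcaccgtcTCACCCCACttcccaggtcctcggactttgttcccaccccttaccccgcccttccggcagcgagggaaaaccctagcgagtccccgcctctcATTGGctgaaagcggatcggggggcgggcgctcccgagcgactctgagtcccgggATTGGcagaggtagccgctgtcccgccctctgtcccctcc
Idi1, chr13:8885356-8885655, plus strand: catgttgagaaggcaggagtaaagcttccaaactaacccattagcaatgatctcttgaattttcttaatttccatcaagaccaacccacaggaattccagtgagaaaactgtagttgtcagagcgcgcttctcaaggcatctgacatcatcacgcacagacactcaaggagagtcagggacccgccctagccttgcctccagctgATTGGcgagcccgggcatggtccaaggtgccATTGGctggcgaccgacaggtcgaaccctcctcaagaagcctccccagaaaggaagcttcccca
Cyp51, chr5:4104648-4104947, minus strand: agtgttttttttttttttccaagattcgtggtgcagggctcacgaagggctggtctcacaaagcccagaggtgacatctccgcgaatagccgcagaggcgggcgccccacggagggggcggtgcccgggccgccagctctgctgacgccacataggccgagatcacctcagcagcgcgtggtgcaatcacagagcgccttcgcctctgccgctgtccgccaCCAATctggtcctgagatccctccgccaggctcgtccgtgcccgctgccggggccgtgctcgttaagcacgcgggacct
Msmo1, chr8:64733529-64733828, minus strand: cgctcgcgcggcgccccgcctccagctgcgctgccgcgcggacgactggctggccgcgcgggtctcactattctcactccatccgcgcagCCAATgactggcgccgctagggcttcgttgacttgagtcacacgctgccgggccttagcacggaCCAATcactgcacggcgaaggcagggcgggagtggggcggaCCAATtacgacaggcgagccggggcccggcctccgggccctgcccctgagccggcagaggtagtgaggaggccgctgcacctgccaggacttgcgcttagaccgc
Nsdhl, chrX:72918271-72918570, plus strand: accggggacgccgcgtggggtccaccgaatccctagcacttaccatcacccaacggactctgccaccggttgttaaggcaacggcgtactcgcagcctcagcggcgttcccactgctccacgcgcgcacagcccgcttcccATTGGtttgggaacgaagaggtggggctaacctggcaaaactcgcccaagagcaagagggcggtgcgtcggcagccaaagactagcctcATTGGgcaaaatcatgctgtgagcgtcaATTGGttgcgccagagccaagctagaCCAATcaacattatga
In the Hmgcs1 window the run TCACCCCAC is the sterol regulatory element, and the other capitals are 4 CCAAT boxes. Nsdhl also had 4 of them, Msmo1 3, Idi1 2 and Cyp51 1. Dhcr7, which rose too, had none of the 4 motifs in the window of its first listed start.

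The SREBP factors and their regulators formed a list of their own. Of 9 measured genes none passed, and their median difference was -0.001. Srebf2, which drives the cholesterol genes, was at 0.19 (limma adjusted p = 0.52) and Srebf1, which drives the fatty acid genes, at -0.44 (0.482). Insig1 and Insig2, which hold the SREBP precursors back, were at 0.46 (0.478) and 0.43 (0.466). The list held both signs: 4 of the 9 estimates were above 0.

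Some genes of fatty acid synthesis were higher at the RNA level. Of 19 measured genes 4 rose (Elovl5, Scd1, Acss2 and Acacb), none fell, 18 estimates were above 0 and the median was 0.41. The count was 2 without wild-type replicate 2 or without ATF7+/+ replicate 4, 6 or 7, and it was 1 without wild-type replicate 8 or without ATF7+/+ replicate 1 or 3. With the spread of the 2 groups alone, and in the samples with high Y-linked levels alone, it was 0. The count was 10 in set A alone, where 2645 of all 13542 genes tested passed. It was 1, Elovl5, in set B alone, where 6 of all genes tested passed. The list mean ran from -1.25 to -0.17 in wild-type and from -0.76 to 0.10 in ATF7+/+ samples, so the groups overlapped.

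Elovl5 lengthens polyunsaturated fatty acids. Its levels were 10.95, 11.60 and 11.94 in wild-type and 11.91, 12.23 and 12.62 in ATF7+/+ offspring. The ranges met only at their edges, and the difference of 0.81 ± 0.14 (adjusted p = 0.0043) was nearly equal in both array sets (set A 0.86, set B 0.77). Acss2, the cytosolic acetyl-CoA synthetase, rose by 1.15 ± 0.25 (adjusted p = 0.0241). Acacb, the acetyl-CoA carboxylase whose product restrains fatty acid oxidation, rose by 1.14 ± 0.27 (0.0474). Scd1, the delta-9 desaturase, rose by 0.33 ± 0.07 (0.0154). The central enzymes did not pass: Fasn, fatty acid synthase, was at 0.70 ± 0.32 (adjusted p = 0.422), Acly, ATP citrate lyase, at 0.57 ± 0.31 (0.543) and Acaca at 0.46 ± 0.28 (0.597). Fasn differed between the array sets, at 1.43 in set A against 0.15 in set B.

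The window of Elovl5, taken as above, is printed as that of the gene with the smallest p, with its matches in capitals. It held the CCAAT box, the E-box and the TGACGTNA element, which was in 1 of the 40 windows read for genes that passed, beside 3.08% of all genes with a window.
Elovl5, chr9:77917115-77917414, plus strand: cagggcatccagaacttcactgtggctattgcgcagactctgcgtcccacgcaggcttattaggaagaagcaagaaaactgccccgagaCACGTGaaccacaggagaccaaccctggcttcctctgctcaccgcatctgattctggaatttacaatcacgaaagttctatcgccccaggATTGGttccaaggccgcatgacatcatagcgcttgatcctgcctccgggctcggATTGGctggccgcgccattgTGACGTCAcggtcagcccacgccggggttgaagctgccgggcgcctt
The element is the run TGACGTCA. The files hold no binding data, so these letters are a description of the window only.

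Fabp5, a fatty acid-binding protein better known from skin and fat than from liver, had the largest difference of the genes that passed. It stood at 6.51, 7.92 and 8.87 in wild-type and at 8.96, 9.64 and 10.22 in ATF7+/+ offspring. No samples overlapped, and the difference was 1.84 ± 0.33 (adjusted p = 0.0043), or 3.59-fold. The other Fabp5 probe set gave 1.88 (0.00341), and the array sets gave 1.88 and 1.82. Tecr, the enoyl reductase that completes each round of elongation of very long chains, rose by 0.58 ± 0.14 (0.0483) with no overlap between groups.

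Among the other genes that rose, Rdh11, a retinol dehydrogenase, had levels of 6.81, 7.98 and 8.72 in wild-type and of 8.31, 9.22 and 9.37 in ATF7+/+ offspring. The groups overlapped in part, and the difference was 1.20 ± 0.21 (adjusted p = 0.0043). Rps23rg1, a retrogene derived from the ribosomal protein gene Rps23, ran from 6.37 to 7.02 with a median of 6.66 in wild-type and from 7.02 to 7.78 with a median of 7.39 in ATF7+/+ offspring. The highest wild-type and the lowest ATF7+/+ value were equal at 2 decimals, and the difference was 0.75 ± 0.14 (0.00807). As a retrocopy it resembles its parent gene, and how probes shared with Rps23 were handled is not given in the sources used here.

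Single enzymes of detoxification and ester hydrolysis also rose. Gstm6, a glutathione transferase, rose by 0.75 ± 0.15 (adjusted p = 0.0154), and it was 1 of 21 measured conjugation enzymes to pass, none of which fell, beside a list median of 0.11. The carboxylesterases Ces2e and Ces2g rose by 0.59 ± 0.13 (0.0347) and 0.51 ± 0.11 (0.0281). Cyp2j6, an arachidonic acid epoxygenase of the cytochrome P450 family, rose by 0.51 ± 0.11 (0.0153) and Aadac, an arylacetamide deacetylase, by 0.46 ± 0.10 (0.0153). Members of multigene families such as Gstm, Ces2 and Cyp2j can share probes, and these values carry that uncertainty. Of 22 cytochrome P450 genes of families 1 to 3 on their own list none passed.

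Cmah, the hydroxylase that makes N-glycolylneuraminic acid, rose by 0.86 ± 0.19 (adjusted p = 0.0285), with set A at 1.31 against 0.53 in set B. Sucnr1, the succinate receptor, rose by 0.68 ± 0.15 (0.0311), and Camk1d, a calcium-dependent kinase, by 0.70 ± 0.15 (0.0258). Otc, ornithine transcarbamylase of the urea cycle, rose by 0.32 ± 0.08 (0.0477) and was the only one of 16 measured urea cycle and amino acid breakdown genes to pass, beside a list median of -0.06. The rest of the 39 rose by 0.29 (Dpp4, dipeptidyl peptidase 4) to 0.70 (Echdc1, an ethylmalonyl-CoA decarboxylase): Car3, Nqo2, Ulk2, Arhgap42, Jmy, Tmem144, Dpp7, Ifitm3 and Ndufs5 lay between. Arhgap42 was at 0.43, with 0.86 in set A against 0.10 in set B. Its other probe set gave 0.20 and did not pass (limma adjusted p = 0.739).

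**Figure D3:**
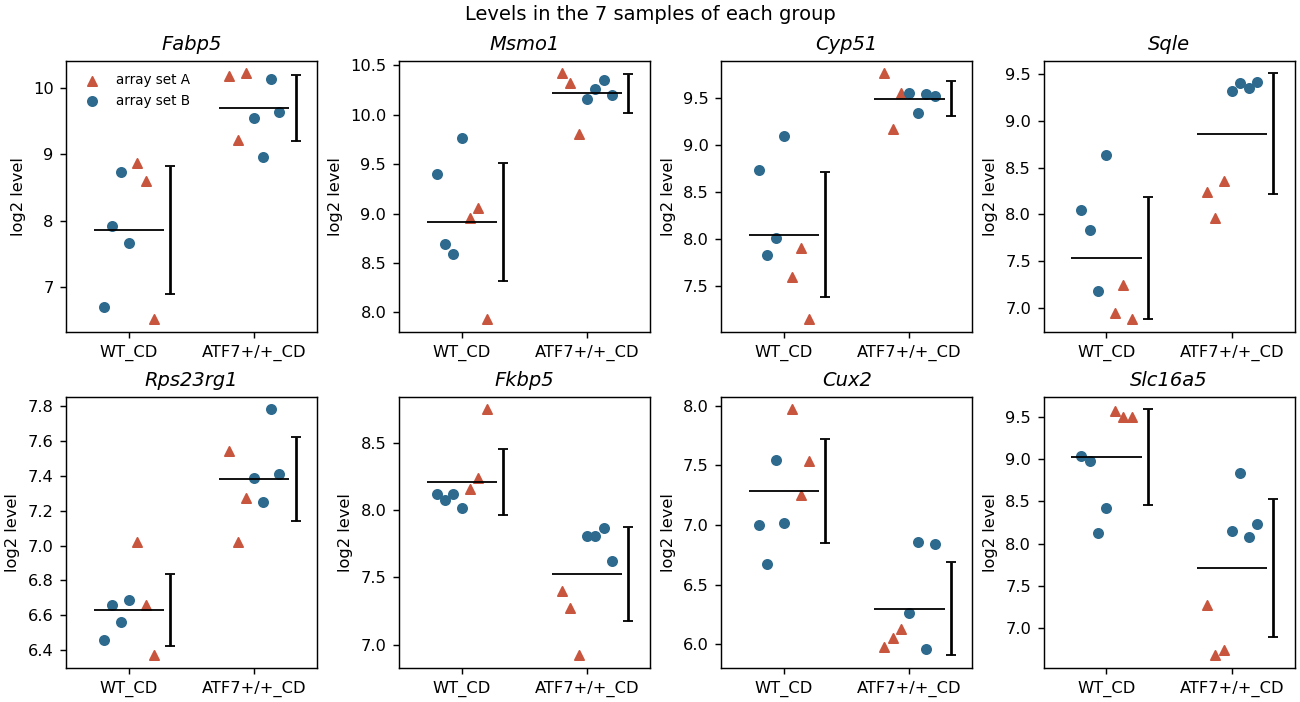
Log2 level of 8 genes in each of the 7 wild-type (WT_CD) and 7 ATF7+/+ (ATF7+/+_CD) samples, with the mean as a line and the SD as a bar. Triangles are array set A and circles array set B. Fabp5, Msmo1, Cyp51 and Fkbp5 do not overlap between groups; for Slc16a5 the set A samples are far apart and the set B samples overlap.

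No list held more than 1 of the 8 genes that fell. Fkbp5, a co-chaperone of the glucocorticoid receptor that is itself induced by glucocorticoids, had levels of 8.02, 8.12 and 8.75 in wild-type and 6.92, 7.62 and 7.87 in ATF7+/+ offspring. The groups did not overlap, and the gene was 0.68 ± 0.14 lower (a difference of -0.68, adjusted p = 0.0147). In set A it was -1.19, and in set B -0.31.

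Cux2, a repressor typical of female mouse liver, ran from 6.67 to 7.97 with a median of 7.25 in wild-type and from 5.96 to 6.86 with a median of 6.13 in ATF7+/+ offspring. The ranges overlapped slightly, and the difference was -0.99 ± 0.24 (adjusted p = 0.0473). Y-linked levels were high in 1 more ATF7+/+ sample than wild-type samples. The 7 measured genes of the female-biased list had a median of -0.05 and Cux2 alone passed. The 9 male-biased genes had a median of 0.80 and none passed. Cux2 passed in 4 of the 14 fits that leave out 1 sample. Among the samples with high Y-linked levels alone it was at -1.08 ± 0.21 (limma adjusted p = 0.0283). In those samples 10 genes passed, 9 higher and 1, Cux2, lower, all of them among the 47. Those samples are among the ones on which the 47 were chosen, and the part of sex in the fall of Cux2 was not tested.

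Slc16a5, a monocarboxylate transporter, had the largest fall of the genes that passed, -1.31 ± 0.30 (adjusted p = 0.0371). Its wild-type levels were 8.13, 9.04 and 9.57 and its ATF7+/+ levels 6.68, 8.08 and 8.83, so the groups overlapped. Set A gave -2.62 and set B -0.32. Ildr2, a membrane protein linked to liver lipid content, showed the same split, at -0.70 ± 0.16 over all samples (adjusted p = 0.0371), -1.40 within set A and -0.19 within set B.

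Chd7, a chromatin remodeller, had levels of 8.22, 8.36 and 9.23 in wild-type and a narrow 8.02, 8.13 and 8.16 in ATF7+/+ offspring. The groups did not overlap and the difference was -0.50 ± 0.12 (adjusted p = 0.0474). The array carries 30 probe sets for Chd7; all of the others were lower too, from -0.06 to -0.61, and 1 of those passed (adjusted p = 0.0327). Fmo5, a flavin monooxygenase, fell by 0.57 (-0.57 ± 0.13, adjusted p = 0.036). Alkbh2, a DNA repair dioxygenase, and Rexo4, an exonuclease, fell by 0.37 (adjusted p = 0.021) and 0.29 (0.0218) on the log2 scale.

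All 47 genes kept their direction in both array sets, but not their size. They were chosen on the samples that make up these sets, so the shared direction was largely fixed by the choice. With the array set as a term in the fit 255 genes passed, 152 higher and 103 lower. In set A alone (3 samples against 3) 2645 of the 13542 genes tested passed, 1069 higher and 1576 lower. In set B alone (4 against 4) 6 passed, all higher: Elovl5, Rps23rg1, Sqle, Tecr, Slc23a1 and Scpep1. Set A also holds the ATF7+/+ arrays that stood apart on its first component, and their part in the set A count was not tested. The differences of all 8 genes that fell were larger in set A. The cholesterol list median was 0.45 within set A against 0.80 within set B, and that of fatty acid synthesis 0.62 and 0.33. With both array set and the 2 groups' own spread in the fit 10 genes passed, 8 of them among the 47: Sqle, Cyp51, Hmgcs1, Msmo1, Rdh11, Rps23rg1, Tecr and Fmo5.

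**Figure D4:**
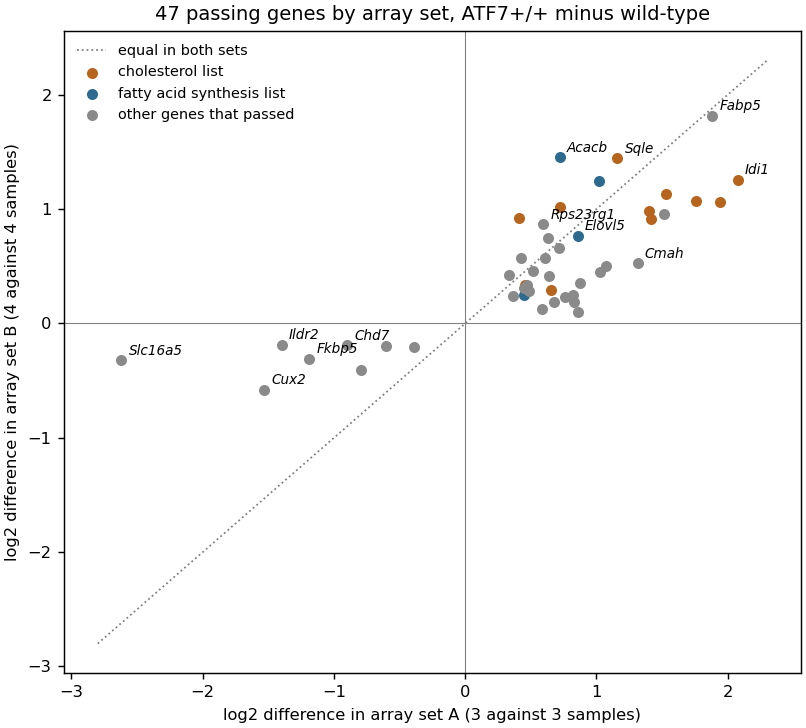
Log2 difference, ATF7+/+ minus wild-type, of each of the 47 genes that passed, in array set A (horizontal axis, 3 samples against 3) and set B (vertical axis, 4 against 4). Brown points are cholesterol genes, blue points fatty acid synthesis genes, grey points the others, and the dotted line marks equal differences. All points lie in the quadrants of equal sign, for genes chosen on these same samples. Slc16a5 is at -2.62 and -0.32, and Fabp5 at 1.88 and 1.82.

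The remaining lists held no gene that passed, apart from the single genes named above. Cell cycle genes had a median difference of 0.34, with 21 of 22 estimates above 0; Mki67, the proliferation marker, was at 0.90 (limma adjusted p = 0.254) and Ccnd1 at -0.52 (0.623). The list mean overlapped widely, at -1.14 to 0.70 in wild-type and -0.61 to 1.37 in ATF7+/+ samples. Pericentral hepatocyte genes driven by Wnt signalling had a median of 0.32, with Glul, glutamine synthetase, at 0.67 (0.30) and Cyp1a2 at 0.76 (0.105); within set A the median was 0.59, and within set B it was 0.02.

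Iron regulation genes all had estimates below 0, with a median of -0.18 over 14 genes. The median was -0.40 in set A against -0.04 in set B. Hamp, the iron hormone hepcidin, was at -2.72 ± 1.13 (limma adjusted p = 0.344); its wild-type levels were 10.94, 12.68 and 12.81 and its ATF7+/+ levels 4.45, 12.42 and 12.67. The medians were close and the ATF7+/+ spread was wide (SD 3.75 against 0.66, n = 7 each).

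Clock genes and their direct outputs had a median of -0.26 over 17 genes, with -0.60 for set A against 0.06 for set B. Per2 was at -0.87 (limma adjusted p = 0.105), Ciart at -1.88 (0.156) and Arntl, which peaks opposite to the Per genes, at 1.03 (0.256); none passed. These levels change over the day, as do those of the cholesterol genes, and the part of collection time in the differences was not tested.

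Macrophage markers had a median of -0.18 with 1 of 14 estimates above 0, and -0.61 in set A against 0.13 in set B. Their mean ran from -0.24 to 0.51 in wild-type and from -0.58 to 0.48 in ATF7+/+ samples. In whole liver, fewer cells of a type and less RNA per cell cannot be told apart, and the part of cell makeup in the differences was not tested. Y-linked genes had a median of 0.86, 1.93 in set A, where 1 of the 3 wild-type and none of the 3 ATF7+/+ samples was low, and 0.02 in set B. Male-biased genes had medians of 1.16 for set A against 0.28 for set B. In set A their mean was -1.79 in wild-type replicate 8, where Y-linked levels were low. It was -1.07 and -0.83 in wild-type replicates 6 and 7, where they were high, and -0.06 to 0.99 in the ATF7+/+ samples. With the Y-linked mean as a covariate 38 genes passed, all among the 47, and 11 of them were cholesterol genes. That fit reuses the samples on which the 47 were chosen. The part of sex in these differences was not tested.

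**Figure D5:**
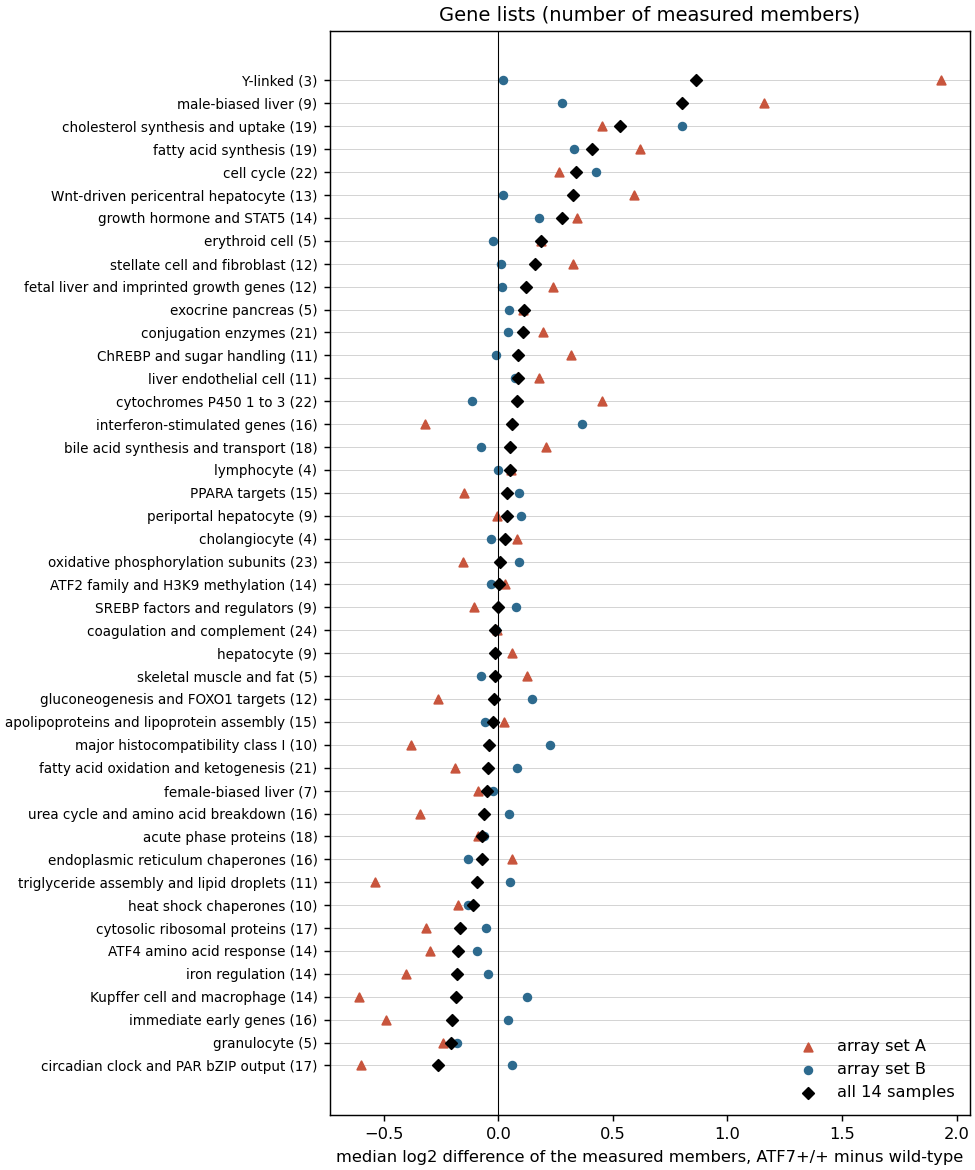
Median log2 difference, ATF7+/+ minus wild-type, of the measured members of each of 44 gene lists, with the number of members in brackets. Black diamonds are all 14 samples, triangles array set A and circles array set B. The cholesterol and fatty acid lists lie right of 0 in both sets, as do others such as the male-biased and cell cycle lists. The Y-linked, clock and macrophage lists lie near 0 in set B and far from it in set A.

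In offspring of low-protein sires the same comparison, 8 samples against 8, called 0 genes (0%) by limma, where 1130 (8.34%) had an unadjusted p under 0.05; with the spread of those 2 groups alone 10 passed, and without WT_LPD replicate 3 there was 1 (Gdf2). Differences of the cholesterol genes there had a median of -0.32, and Hmgcs1 was at -0.41 ± 0.22, Msmo1 at -0.33 ± 0.22 and Rps23rg1 at -0.44 ± 0.13, none passing. Fabp5 was at 0.01 ± 0.30. The difference between the diets was tested as an interaction. It passed for 3 genes (0.0222%, all with a larger difference in the control-diet arm), and 956 (7.06%) had an unadjusted p under 0.05.

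Rps23rg1 had the smallest p of the interaction: its ATF7+/+ minus wild-type difference was 1.18 ± 0.20 larger with control-diet than with low-protein sires (limma adjusted p = 0.0037). Msmo1 followed at 1.63 ± 0.32 and Rdh11 at 1.43 ± 0.29 (each 0.0426). Of the cholesterol list Msmo1 alone passed, beside a list median of 0.96; Hmgcs1 was at 1.54 ± 0.32 (adjusted p = 0.0501), Sqle at 1.75 ± 0.37 (0.0548) and Dhcr7 at 1.10 ± 0.23 (0.0548). Pxdn, a peroxidase of the extracellular matrix that was not among the 47, was at 0.68 ± 0.15 (0.0565).

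The count of 3 moved with most samples left out. Rps23rg1 alone passed without WT_CD replicate 2, 3, 6 or 8, without ATF7+/+_CD replicate 1, 4, 6 or 7, without WT_LPD replicate 1, 4, 6 or 7, and without ATF7+/+_LPD replicate 4, 5, 7 or 8. The count rose to 11 and 15 without WT_CD replicates 1 and 4, to 12, 11 and 26 without ATF7+/+_CD replicates 2, 3 and 5, to 8 and 5 without WT_LPD replicates 2 and 8, and to 16, 7 and 13 without ATF7+/+_LPD replicates 1, 2 and 3. With the spread of these 4 groups alone, or in the samples with high Y-linked levels alone, it was 0.

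The levels behind these contrasts put the wild-type control-diet group lowest. Rps23rg1 stood at 6.63 ± 0.21 (SD, n = 7) in WT_CD, 7.38 ± 0.24 (SD, n = 7) in ATF7+/+_CD, 7.53 ± 0.21 in ATF7+/+_LPD, 7.57 ± 0.22 in ATF7+/-_LPD, 7.88 ± 0.21 in ATF7+/-_CD and 7.97 ± 0.45 in WT_LPD (SD, n = 8 each). Msmo1 stood at 8.91 ± 0.59 in WT_CD, and the other 5 groups lay between 10.22 ± 0.20 in ATF7+/+_CD and 10.62 ± 0.33 in ATF7+/-_CD. For Msmo1 those 5 differed by less than their largest SD, 0.59.

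The gene for ATF7 itself did not pass. Atf7 levels were 8.72, 8.90 and 9.15 in wild-type and 8.84, 8.96 and 9.59 in ATF7+/+ offspring. The groups overlapped, and the difference was 0.14 ± 0.09 (adjusted p = 0.612), with set A at 0.37 against -0.03 for set B; the other probe set gave 0.13 (0.837). The heterozygous groups were at 8.65 ± 0.15 and 8.67 ± 0.15 (SD, n = 8 each). Atf2, its close relative, was at 0.00 ± 0.09 (0.998), and none of 14 measured genes of the ATF2 family and of histone H3 lysine 9 methylation passed, beside a list median of 0.00.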

How the data were processed

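RNA of F1 mouse liver was labelled with biotin and hybridized to 48 Affymetrix arrays. The deposited values are log2 signals of probe sets; per the submitters' processing notes the authors used Affymetrix Expression Console and RMA; versions, and whether all arrays were normalized together, are not given in the sources used here. They were used as deposited (35556 probe sets, array medians 5.89 to 6.12). Arrays have no depth; their number limits the precision.

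The members and gene lists were chosen with earlier results of these data known. Probe sets with 1 gene symbol (21789) and a mean at or above the 40th percentile (5.46) were kept, with the brightest for each gene, which left 13542 genes. Within a group and array set, 2 pairs of arrays differed by a spread ratio of 1.37 and 1.38 against 2.04 to 4.98 for other pairs, and each was averaged. Array sets were split at the largest step along the main component of the probe sets that the annotation does not list. Group means of 46 samples in 6 groups were fitted with limma 3.58.1 in R 4.3.3 (with the package data.table, version 1.17.8), with two-sided tests and Benjamini-Hochberg adjustment over all genes. Lists are described by counts and medians. Genes named were the 15 largest rises and 15 largest falls that passed, up to 5 passing members of each list, the 8 smallest p-values of the interaction, Atf7, Atf2 and all members of the lipid lists; the others that passed, and those without overlap, were named after their values were seen. Scripts were tested on simulated data. Promoters were searched in Python 3.11.15, and matplotlib 3.10.9 drew the figures. Alternatives covered the filter, normalization, probe set rule, variance prior, array weights, array set, replicate block, Y-linked level, samples in the fit and each sample left out; 2 of them (samples with high Y-linked levels alone, and the groups compared with the array set as a block) were chosen after seeing the data.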

Additional observations from a re-analysis of the deposited data

Results flagged for a closer look

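In 14 of 150 sets of 7 samples checked, the highest or lowest sample stood far from the others. The sets were of the named genes and of the cholesterol and fatty acid synthesis list means. Chance gives about 1 in 20 for independent sets. These sets share the same samples, so the count cannot be judged against that rate. In the wild-type group replicate 8 was high for Fkbp5 at 8.75, where the other 6 samples ended at 8.24, and low for Sc5d at 10.68, for Nqo2 at 8.23 and for Tmem144 at 5.92. Wild-type replicate 2 was low for Acss2 at 8.09 and for Thrsp, a lipogenic gene, at 6.50. In the ATF7+/+ group replicate 2 was low for Gstm6 at 8.80, for Acly at 9.19 and for Elovl2, an elongase of long polyunsaturated chains, at 11.80, and high for Atf7 at 9.59. Replicate 1 of that group was low for Chd7 at 8.02 and for Rexo4 at 7.66, replicate 3 was low for Msmo1 at 9.81, and replicate 5 was high for Scd2, a desaturase, at 9.05.

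The ATF7+/+ minus wild-type difference was larger with control-diet than with low-protein sires, by limma's test of the interaction, for Rps23rg1 (1.18), Msmo1 (1.63) and Rdh11 (1.43). Among 6517 probe sets with no listed gene or with several, which the report does not use, 1 passed in the control-diet comparison, and it was higher.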

How the results depend on the processing

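All 47 genes kept their direction in every setting run, and none passed in all of them. The direction was largely fixed by the choice of these genes on the same samples. The count of 47 became 30 with no level filter or with median centring, 255 with the array set as a block, 206 with that block and the Y-linked level, 2645 in set A alone, 6 in set B alone, 75 with all 48 arrays as samples, 1 with the spread of the groups compared, 10 with that and the array set, 10 in samples with high Y-linked levels, and 9 to 184 with a sample left out. The low-protein count of 0 became 1 with array weights, 10 with the array set block, 15 with that block and the Y-linked level, 1740 in set A alone, 10 with the spread of the groups compared, 155 with that and the array set, and 0 to 1 with a sample left out. The interaction count of 3 became 1 with no filter, 16 with the filter at the 60th percentile, 8 with quantile normalization, 12 with median centring, 33 with array weights, 51 with the array set block, 61 with that block and the Y-linked level, 417 in set A alone, 12 in set B alone, 14 with all arrays, 18 with the Y-linked covariate, 0 with the spread of the groups compared, 21 with that and the array set, 0 in samples with high Y-linked levels, and 1 to 26 with a sample left out. The causes were not tested.

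Of 6 pairs of samples with the same replicate number, 5 crossed the array sets, with correlations of -0.50 to -0.13, and the pair within a set was at 0.37. Not every pair was over 0.1, so the numbers were not taken to pair the samples; the crossing of sets limits this check. With the replicate number as a block 44 genes passed, 35 of them among the 47, the low-protein count was 0 and the interaction count 8.

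Signs turned only for genes that did not pass. Atf7 was at -0.03 in set B, Fads2 at -0.24 and Thrsp at -0.17 in set A, and Thrsp ran from -0.13, without wild-type replicate 2, to 0.59 with a sample left out. Atf2 was at 0.00 with quantile normalization, 0.01 with median centring, 0.06 in set A, and -0.06 to 0.06 with a sample left out.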

Other observations

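In the same comparison of ATF7+/+ with wild-type offspring of control-diet sires, bile acid genes had a median of 0.05 over 18 measured genes and none passed. Cyp7a1, the rate-limiting enzyme of bile acid synthesis, was at -0.76 (limma adjusted p = 0.744) and Cyp8b1, the sterol 12-hydroxylase, at 0.82 (0.411). Cytosolic ribosomal protein genes had a median of -0.17 (-0.32 in set A against -0.05 in set B), with 1 of 17 estimates above 0 and none passing. Interferon-stimulated genes had opposite medians in the array sets, -0.32 for set A against 0.37 for set B, as did class I histocompatibility genes, -0.38 against 0.22; none of either list passed over all samples.

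Chrna4, the receptor subunit that passed with the spread of the groups compared and not with that of all 6 groups, stood at 6.46 ± 0.31 (SD, n = 7) in wild-type and 7.87 ± 0.36 (SD, n = 7) in ATF7+/+ offspring of control-diet sires. The other 4 groups had means of 8.28 to 8.89 and SDs of 0.83 to 1.30 (n = 8 each), against which its difference of 1.42 had an adjusted p of 0.248 in limma.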
